A study of Mus musculus with 49 samples.

Results

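Expression of 10 genes that encode factors of deadenylation and maternal mRNA decay was followed in mouse embryos of the late 2-cell stage, each sequenced singly. They were chosen by name among the 54838 genes counted: the scaffold and core subunits Cnot1, Cnot2 and Cnot3 of the CCR4-NOT complex, its deadenylases Cnot6, Cnot6l, Cnot7 and Cnot8, and the adaptors Btg4, Zfp36l2 and Ythdf2. The study asked what TBP and FOXJ3, as candidate regulators of transposable elements, do at zygotic genome activation (ZGA), and removed either protein with Trim-Away, in which a protein bound by an injected antibody is degraded through the ubiquitin ligase Trim21. Zygotes from F1(C57BL/6JxCBA/H) females under 10 weeks of age, mated with F1 males of 3 to 6 months, received an antibody against TBP (TBP LOF, 9 embryos), mouse IgG as its CONTROL (10 embryos), an antibody against FOXJ3 (FOXJ3 LOF, 17 embryos) or rabbit IgG as its CONTROL (13 embryos). All groups, CONTROL included, received mCherry-Trim21 mRNA 4 h later and were collected 48 h post-hCG. Each library came from 1 embryo. Libraries of the FOXJ3 experiment were made in 2 batches. TBP embryos were collected in 3 replicates and processed at once, and the labels do not say which embryos were collected together.

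In every eukaryotic cell, most mRNAs are degraded after their poly(A) tail has been shortened, and CCR4-NOT is the main enzyme complex that does so. It joins a large scaffold to a pair of catalytic subunits, one of the CAF1 type (CNOT7 or its paralog CNOT8) and one of the CCR4 type (CNOT6 or its paralog CNOT6L), and it has little choice of target by itself. Adaptors bring it to mRNAs: BTG4, made in the maturing oocyte, binds the CAF1 subunit and is needed for clearance of maternal mRNA, ZFP36L2 binds AU-rich elements, and YTHDF2 binds mRNA marked with N6-methyladenosine (m6A). Some of this clearance runs on factors stored in the oocyte, and some needs transcription from the embryo's own genome at the 2-cell stage.

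Of 49 embryos, 47 passed quality control, with 1103569 to 5434808 counted reads. In the TBP experiment, ERCC spike-in RNA, added with the lysis buffer, took 2.67% to 6.12% of the reads of LOF embryos (median 4.38%) and 2.22% to 3.25% in CONTROL (median 2.82%). Normalized counts in the TBP experiment are reads divided by a size factor from these spike-ins, so that a general loss of mRNA remains visible, and the median gene had a log2 fold change (LOF over CONTROL) of -0.70. With TMM, a scaling that assumes no change in the bulk of genes, the median gene had 0.13. For the members, both values are given where a direction depends on this choice. Trim-Away acts on protein, and Tbp mRNA itself was at 76.3 ± 50.3 normalized counts (SD, n = 9) upon TBP LOF against 335 ± 147 (SD, n = 9). The construct mCherry-Trim21 was counted in all embryos, at 1963 ± 1568 normalized counts in TBP LOF embryos and 1818 ± 866 in their CONTROL embryos. The labels give no cell count for single embryos, so values are per embryo and not per cell.

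Upon TBP LOF, 3 of the 10 decay factors fell and 0 rose. The m6A reader Ythdf2 fell most, by 1.86 on the log2 scale, followed by the scaffold Cnot1 with -1.22 and the deadenylase Cnot8 with -0.89. The adaptor Btg4 and the deadenylases Cnot6l and Cnot7, in contrast, had positive log2 fold changes that did not pass the threshold (adjusted p under 0.05, edgeR's quasi-likelihood test, two-sided). Of all 19357 genes and transposable element (TE) families tested, 29.7% were called lower and 1.34% higher, so the share of lower members, 30%, was near the background. Scaled by TMM, 12.7% of all features were lower and 12.8% higher, and of the members Ythdf2 alone was lower, whereas Btg4, Cnot6l and Cnot7 were higher. The median log2 fold change of the members was -0.20 with spike-ins and 0.52 by TMM, against -0.70 and 0.13 for all genes. All 10 members passed the filter on low counts, which asked for a read in 25% or more of the embryos.

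**Figure D1:**
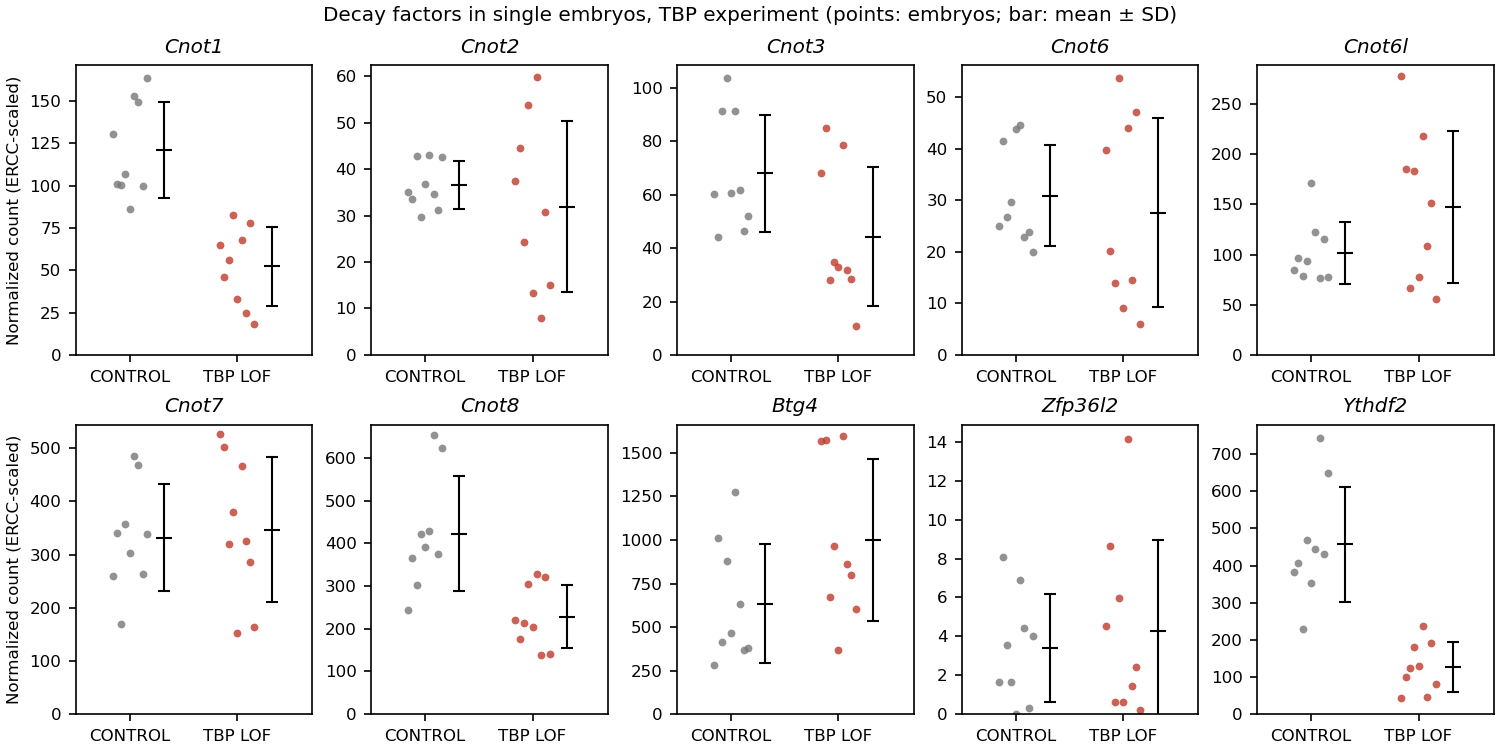
Normalized counts of the 10 decay factors (vertical axes, ERCC-scaled, starting at 0) in each CONTROL (grey, n = 9) and TBP LOF (red, n = 9) embryo; each point is 1 embryo and the bar gives mean ± SD, cut off at 0 where the SD exceeds the mean. LOF embryos lie below all CONTROL embryos for Cnot1, and 8 of 9 do so for Ythdf2.

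Cnot1 (ENSMUSG00000036550.16, chromosome 8, 95719451 to 95807464, reverse strand; all coordinates GRCm38) encodes the scaffold on which the complex assembles. Its normalized counts were 18.2 to 82.5 in LOF embryos (median 55.8) and 86.3 to 164 in CONTROL embryos (median 107). The groups did not overlap with spike-ins, a separation that 6.69% of all features tested showed in this direction. Scaled by TMM they overlapped, with 5 of 9 LOF embryos below the lowest CONTROL embryo. The log2 fold change was -1.22 (SE 0.31, adjusted p = 0.00155), and by TMM it was -0.42 (adjusted p = 0.133), with the same sign but not past the threshold. Cnot2 and Cnot3, whose products form a module that bridges the scaffold to partner proteins, had smaller log2 fold changes. Whether they differed from Cnot1 was not tested. Cnot2 (chromosome 10, 116485161 to 116581511) had 7.99 to 59.8 normalized counts in LOF embryos (median 30.9) and 29.7 to 43.0 in CONTROL embryos (median 35.1). With spike-ins the LOF embryos thus lay on both sides of a narrow CONTROL range, 4 below and 3 above it. The coefficient of variation was 57.6% against 14%. By TMM 1 LOF embryo lay below and 5 above the CONTROL range, with coefficients of 35.6% and 16.5%. With spike-ins all members except Btg4 (46.5% against 54.1%) had the larger coefficient in LOF embryos. Cnot3 (chromosome 7, 3645268 to 3661109) had 10.8 to 84.9 (median 32.9) and 44.3 to 104 (median 60.8), with 6 of 9 LOF embryos below the CONTROL range and the other 3 inside it. Neither passed the threshold, with log2 fold changes of -0.22 (SE 0.36, adjusted p = 0.699) for Cnot2 and -0.64 (SE 0.34, adjusted p = 0.158) for Cnot3, and by TMM both turned positive, with 0.52 and 0.14.

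Of the CAF1-type paralogs among the deadenylases, Cnot8 was called with spike-ins and Cnot7 was not. The difference between them was not tested. Cnot8 (ENSMUSG00000020515.13, chromosome 11, 58104153 to 58118594, forward strand) had 139 to 329 normalized counts in LOF embryos (median 214) and 244 to 652 in CONTROL embryos (median 390). All 9 LOF embryos lay below the CONTROL median and 6 of them below the lowest CONTROL embryo. The log2 fold change was -0.89 (SE 0.29, adjusted p = 0.0116), close to that of the median gene, and by TMM it was -0.01 (adjusted p = 0.981). Cnot7 (ENSMUSG00000031601.16, chromosome 8, 40492540 to 40515847, reverse strand) had 153 to 526 (median 326) and 170 to 485 (median 340), so that the groups overlapped widely, with 2 LOF embryos below and 2 above the CONTROL range. It had a log2 fold change of 0.06 with SE 0.29 (adjusted p = 0.908), with a 95% interval from -0.51 to 0.63, and by TMM 0.91 (SE 0.20, adjusted p = 0.00121), past the threshold. Scaled by TMM, all 9 LOF embryos lay above the highest CONTROL embryo, a separation not counted over all features under that scaling.

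The ratio of Cnot7 to Cnot8 reads within an embryo, into which no scaling enters, had a median of 1.42 in TBP LOF embryos (0.745 to 2.84) and 0.775 in CONTROL embryos (0.546 to 1.13). It was above 1 in 7 of 9 LOF embryos and in 2 of 9 CONTROL embryos, and the ranges overlapped. This ratio was computed after the values were known and was not tested.

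The CCR4-type paralogs did not pass the threshold with spike-ins. Cnot6l (ENSMUSG00000034724.18, chromosome 5, 96070333 to 96164171, reverse strand), which acts in the maturing oocyte, had 55.5 to 278 normalized counts in LOF embryos (median 151) and 76.5 to 171 in CONTROL embryos (median 93.9). There, 4 LOF embryos lay above all CONTROL embryos and 2 below them. The log2 fold change was 0.52 (SE 0.31, adjusted p = 0.210), and 1.27 by TMM (SE 0.24, adjusted p = 0.000201). Cnot6 (chromosome 11, 49671503 to 49712723) had 5.98 to 53.8 (median 20.1) and 19.97 to 44.7 (median 26.8), and its log2 fold change, -0.18 with an SE of 0.39 (adjusted p = 0.779), turned to 0.51 by TMM. The ratio of Cnot6l to Cnot6 reads within an embryo had a median of 6.97 (3.21 to 9.28) upon TBP LOF and 3.35 (2.32 to 4.83) in CONTROL embryos, again as a description without a test.

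Btg4 and Ythdf2 had the highest and the lowest log2 fold change of the members upon TBP LOF, and their promoter windows are therefore shown. The windows are RefSeq's, on GRCm38, with 250 bases before and 50 after the annotated start, written from 5′ to 3′ of the gene: chr4:132212207-132212506 (reverse strand) for Ythdf2 and chr9:51115751-51116050 (forward strand) for Btg4. The Btg4 window lies inside the bounds of the gene as counted (51060901 to 51119875) and not at their 5′ end. The Ythdf2 window lies at the 5′ end of its gene. Capitals mark GC boxes, that is GGGCGG or its reverse complement CCGCCC.
Ythdf2: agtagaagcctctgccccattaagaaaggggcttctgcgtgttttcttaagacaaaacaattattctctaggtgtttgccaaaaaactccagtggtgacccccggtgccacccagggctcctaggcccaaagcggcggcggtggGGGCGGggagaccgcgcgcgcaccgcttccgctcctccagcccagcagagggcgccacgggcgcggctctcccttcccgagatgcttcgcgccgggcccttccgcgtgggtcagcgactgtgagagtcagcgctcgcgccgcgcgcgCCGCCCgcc
Btg4: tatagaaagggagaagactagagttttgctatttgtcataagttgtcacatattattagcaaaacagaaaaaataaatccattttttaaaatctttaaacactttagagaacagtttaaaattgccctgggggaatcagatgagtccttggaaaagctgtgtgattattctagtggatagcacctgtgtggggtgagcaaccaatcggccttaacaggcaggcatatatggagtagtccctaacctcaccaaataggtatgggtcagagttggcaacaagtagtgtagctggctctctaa
The Ythdf2 window had a GC content of 66.3% and 2 GC boxes, one on each strand, and the Btg4 window had 39.0% and 0. GC boxes were in 9 of the 13 windows that the table holds for members and in 6 of the 7 members it covers, among them Cnot6l, whose log2 fold change was positive like that of Btg4 and which has a window with 82.7% GC and 5 GC boxes. Over all 32851 windows of the table the median GC content was 52.7%, 35.7% of the windows held a GC box, and 8.92% had no more GC than that of Btg4. Windows of Cnot8 and of Cnot6l overlap, so that the same GC box was counted in several windows. The share of all genes with a GC box was not counted. A TATA box in the strict form TATAAA, on either strand, was found in 0 of 13 windows of the 7 members in the table, and in 13.6% of all windows. A CCAAT box (CCAAT on either strand) was in 3 of the 13 and in 37.4% of all, and the Btg4 window has 1. For Cnot1, Cnot7 and Zfp36l2 no window was shown. A match, or the lack of one in such a window, is a description of letters and not of a bound site.

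Ythdf2 (ENSMUSG00000040025.17, chromosome 4, 132184912 to 132212303, reverse strand) had 44.4 to 238 normalized counts in TBP LOF embryos (median 124) and 229 to 745 in CONTROL embryos (median 432). All 9 LOF embryos were below the CONTROL median, and 8 were below the lowest CONTROL embryo. Scaled by TMM, all 9 were again below the CONTROL median, and 4 below the lowest CONTROL embryo. Means were 126 ± 66.7 and 457 ± 155 (SD, n = 9 each), a 3.62-fold difference, and the log2 fold change was -1.86 (SE 0.32, adjusted p = 4.97e-06). It was the only member called in the same direction under TMM, with -0.99 (SE 0.24, adjusted p = 0.0029). Relative to the median gene it had -1.16 with spike-ins and -1.12 by TMM. Taking off the median gene removes most of a scaling, so the 2 values are alike by construction.

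Btg4 (ENSMUSG00000032056.10, chromosome 9, 51060901 to 51119875, forward strand) went the other way. LOF embryos had 366 to 1597 normalized counts (median 864) and CONTROL embryos 282 to 1273 (median 465). Although 8 of 9 LOF embryos were above the CONTROL median, the ranges overlapped, with 3 LOF embryos above the highest CONTROL embryo. Means were 1001 ± 466 and 635 ± 343 (SD, n = 9 each). The log2 fold change of 0.66 (SE 0.32, p = 0.0428 before adjustment) did not pass the threshold in edgeR's quasi-likelihood test (adjusted p = 0.113). It did so as 0.85 (adjusted p = 0.0424) without CONTROL embryo 6, the embryo with the highest CONTROL value. It also did so as 1.49 by TMM (SE 0.27, adjusted p = 0.000122) and as 1.52 with DESeq2's size factors (adjusted p = 9.63e-05). Over the 7 pairs of same-numbered embryos with a replicate block it was 0.98 (adjusted p = 0.00398). These numbers did not pair the embryos, and the other embryos were left out of that fit. With DESeq2's own test the log2 fold change of Btg4 was 0.66 (adjusted p = 0.109). Relative to the median gene, Btg4 was higher by 1.36 under both scalings, values that are alike by construction, as for Ythdf2.

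Zfp36l2 (chromosome 17, 84183931 to 84187947), an AU-rich element binding protein of the oocyte, was close to the limit of detection. It had 1 to 9 reads per LOF embryo and 0 to 6 per CONTROL embryo, or 4.30 ± 4.67 and 3.40 ± 2.79 normalized counts (SD, n = 9 each). The value of 0.24 on the log2 scale (SE 0.77, adjusted p = 0.859) had a 95% interval from -1.27 to 1.75, and no difference was detectable at this depth. Without LOF embryo 8 it turned to -0.23.

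**Figure D2:**
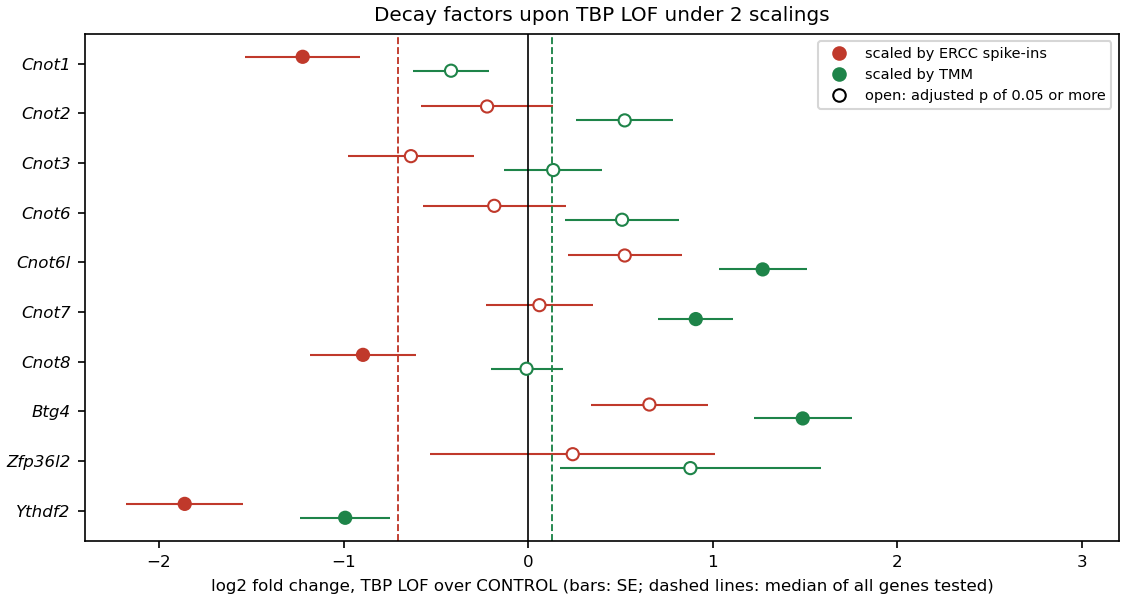
Log2 fold change of each decay factor (rows) upon TBP LOF, with its SE, scaled by ERCC spike-ins (red) and by TMM (green); filled points passed the threshold and dashed lines mark the median of all genes tested, at -0.70 and 0.13. Ythdf2 is filled under both scalings, Cnot1 and Cnot8 with spike-ins, and Cnot6l, Cnot7 and Btg4 by TMM.

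Of the 84 other genes of mRNA decay that were tested, in 9 lists, 33 fell and 1 rose with spike-ins. This is 39.3% lower against 29.7% of all features, and 12 of the 33 were among the 15 exosome genes. The median log2 fold change of the 84 was -0.81, against -0.70 for all genes. By TMM, 19 were lower (22.6%) and 22 higher, against 12.7% and 12.8% of all features. Counts for each list below are to be read beside these shares. The lists were written with earlier results of these data known and are described here by counts alone. Of the other CCR4-NOT genes, Cnot10, which binds the N-terminal part of the scaffold together with CNOT11, fell by 1.09 (SE 0.35, adjusted p = 0.0129), from 74.3 ± 25.3 to 35.1 ± 23.8 normalized counts. The ubiquitin ligase Cnot4 had -0.68 (adjusted p = 0.119), Cnot11 -0.29 (adjusted p = 0.784) and Cnot9, a platform for RNA-binding proteins, 0.44 (adjusted p = 0.334). By TMM, Cnot10 was not called (-0.29, adjusted p = 0.450), Cnot9 was called higher (1.24), and Cnot4 and Cnot11 turned positive.

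Relatives of Btg4 were among the genes that fell. Of 5 BTG and TOB family genes, whose products bind the CAF1 deadenylases like BTG4 does, 3 fell under both scalings. That is 60% of a short list, against 29.7% of all features with spike-ins and 12.7% by TMM. Tob1 fell from 61.2 ± 31.4 to 14.1 ± 9.10 normalized counts (log2 fold change -2.13, SE 0.41, adjusted p = 3.64e-05). Btg1 had -1.96 (SE 0.40, adjusted p = 8.47e-05) and Btg3 -2.38 (SE 0.56, adjusted p = 0.000632), the latter at only 23.3 ± 20.6 normalized counts in CONTROL embryos. Tob2 had -0.75 (adjusted p = 0.0816) and Btg2 -0.65 (adjusted p = 0.353), and the latter turned to 0.16 by TMM.

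Other deadenylases were mixed, with 3 of 8 lower and 1 higher, and by TMM 1 lower (Pnldc1) and 3 higher (Angel1, Angel2 and Pan3, the last at -0.17 with spike-ins). Pnldc1, a nuclease that trims the 3′ ends of piRNAs, fell from 174 ± 48.5 to 25.7 ± 17.5 normalized counts (log2 fold change -2.76, SE 0.35, adjusted p = 1.78e-08), and the poly(A)-specific ribonuclease Parn had -1.11 (SE 0.39, adjusted p = 0.0232), which was not past the threshold without CONTROL embryo 8 (-0.92) or by TMM (-0.20, adjusted p = 0.704). Angel1, a relative of the CCR4 nucleases, rose by 0.89 (SE 0.35, adjusted p = 0.0455), the single higher call, which was lost when any of 11 of the 18 embryos was left out, and without the filter on low counts (adjusted p = 0.0507). Angel2 had 0.21 (adjusted p = 0.642), and 1.05 by TMM (adjusted p = 0.000361). Among 5 poly(A)-binding proteins, the main cytoplasmic one, Pabpc1, fell by 1.70 (SE 0.30, adjusted p = 7.61e-06) and 4 did not pass. Pabpc4 had -0.55 (adjusted p = 0.145, and 0.33 by TMM), and the germline forms Pabpc1l and Pabpn1l, which store and expose maternal mRNA in the oocyte, had 0.51 (adjusted p = 0.481) and 0.47 (adjusted p = 0.542). By TMM, 1 of this list was lower and 3 higher, with Pabpc1l at 1.24 (adjusted p = 0.029) and Pabpn1l at 1.503 (adjusted p = 0.00921).

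Of 15 RNA-binding proteins that can recruit CCR4-NOT or act on its targets, 2 fell under both scalings. Their share, 13.3%, was below the 29.7% of all features with spike-ins and near the 12.7% by TMM. Of the 2, Celf1, which binds GU-rich elements, had -1.76 (SE 0.35, adjusted p = 7.76e-05). Samd4b had 0.36 (adjusted p = 0.426) and Tnrc6a, a GW182 protein of miRNA silencing, 0.46 (adjusted p = 0.455), and both were among the 6 of this list called higher by TMM. Of 9 factors that write, erase or read m6A, 3 fell with spike-ins (33.3%, near the 29.7% of all features) and 0 by TMM. The nuclear reader Ythdc1 had -1.23 (SE 0.33, adjusted p = 0.00245) and Ythdf1, a paralog of Ythdf2, -1.26 (SE 0.38, adjusted p = 0.00728). The third paralog, Ythdf3, had 0.06 (adjusted p = 0.915) and the eraser Fto 0.66 (adjusted p = 0.594). By TMM, Ythdf3 was called higher (0.83), while Ythdf2 was lower.

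Of 5 genes for uridylation and zygotic decay, 2 fell. Tead4, a transcription factor that with YAP1 is known to act in decay that needs zygotic transcription, fell from 30.9 ± 10.9 to 2.67 ± 3.21 normalized counts (log2 fold change -3.28, SE 0.53, adjusted p = 2.22e-06), and the terminal uridylyltransferase Tut7 had -1.63 (SE 0.45, adjusted p = 0.00325). Dis3l2, a nuclease for uridylated RNA, had 1.20 (SE 0.76, adjusted p = 0.251) at 4.48 ± 3.26 against 1.97 ± 2.14 normalized counts. By TMM, Tead4 alone was lower, Tut7 was not called (-0.87, adjusted p = 0.0963), and Dis3l2 (2.14, adjusted p = 0.0242) and Yap1, which had -0.050 with spike-ins, were higher. Of 18 genes for decapping and 5′-to-3′ decay, 6 fell: 4 LSM genes, the helicase Ddx6 and the exonuclease Xrn1. This share, 33.3%, was near the 29.7% of all features. Lsm2 fell by 2.12 (SE 0.31, adjusted p = 2.7e-07) and Lsm4 by 1.96 (SE 0.37, adjusted p = 2.52e-05), both of them also part of the spliceosomal LSM ring. The decapping enzyme Dcp2 had 0.31 (adjusted p = 0.477). By TMM, 2 of the 18 were lower (Lsm2 and Lsm4) and 4 higher, Dcp2 among them (1.10, adjusted p = 0.000354).

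The genes of the RNA exosome and its cytoplasmic cofactor, the Ski complex, were lower in 12 of 15 cases with spike-ins and in 9 of 15 by TMM, with median log2 fold changes of -1.67 and -0.82. The exosome degrades RNA from its 3′ end once the tail is gone. Its catalytic subunit Dis3 fell from 109 ± 34 to 11 ± 9.14 normalized counts (log2 fold change -3.35, SE 0.40, adjusted p = 5.52e-09). Wdr61, a subunit of the Ski complex, fell from 52.0 ± 14.5 to 8.51 ± 3.73 (log2 fold change -2.60, SE 0.37, adjusted p = 2.17e-07). Of the 3 that did not pass, Exosc8 and Skiv2l had negative values, and Ttc37, another Ski subunit, 0.25 (adjusted p = 0.621), which by TMM was called higher (1.02).

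**Figure D3:**
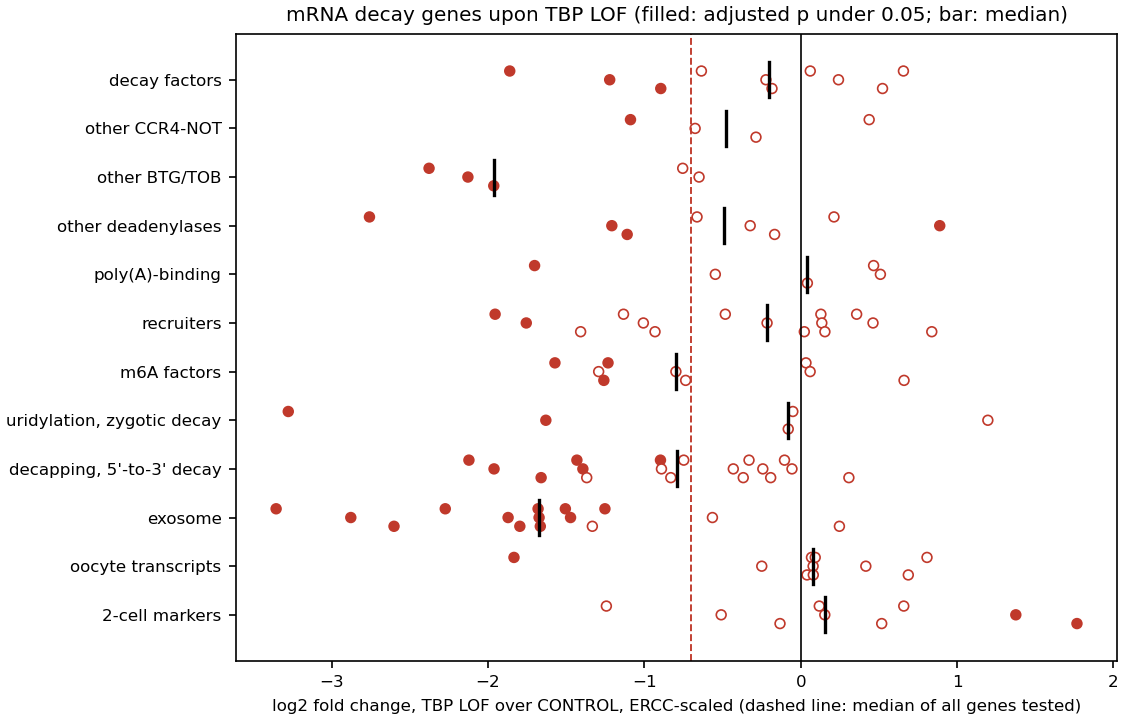
Log2 fold change upon TBP LOF, scaled by spike-ins (horizontal axis), of each tested gene of the decay factors, of 9 lists of mRNA decay genes and of 2 marker lists (rows); filled points passed the threshold, black bars are list medians and the dashed line is the median of all genes tested. The exosome list lies at a median of -1.67, and the decay factors at -0.20.

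Markers of the stage and of other cells were counted alongside. Of 10 transcripts of the oocyte, Zp3 fell and 9 did not pass the threshold with spike-ins, at a median log2 fold change of 0.08, and by TMM 6 were higher, among them Gdf9 and Bmp15. Summed, they had 2194 to 3896 CPM, the share of an embryo's counted reads scaled to a fixed total (median 2866), in TBP LOF embryos and 912 to 2708 (median 1584) in CONTROL embryos. Of 9 markers of the 2-cell stage, all detected in every group, 2 were higher with spike-ins (Tcstv3 with a log2 fold change of 1.77, Usp17lc with 1.38). None was lower, and 1.34% of all features were higher. The markers did not move together: 3 had negative values (Zscan4c -1.24, Obox3 -0.51 and Zscan4f -0.13), and the median was 0.15. By TMM 4 were higher, against 12.8% of all features. The summed level of the 9 markers was 372 to 1159 CPM (median 953) upon LOF and 194 to 735 (median 288) in CONTROL embryos. The 11 markers of cumulus cells, which surround the egg and were removed with hyaluronidase, summed to 0.960 to 8.90 CPM upon TBP LOF and 0 to 25 CPM in CONTROL embryos, with 7 and 6 of the 11 at 0 in all embryos of the group. Of the 4 that could be tested, Tnfaip6 was lower with spike-ins (-2.46, adjusted p = 0.00866), and by TMM Foxl2 alone was called, as higher (adjusted p = 0.0409). The part of stage or of maternal RNA in the levels of the decay factors was not tested.

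Upon FOXJ3 LOF, no decay factor passed the threshold. In 16 LOF and 13 CONTROL embryos, scaled by TMM and fitted with a term for the batch, 0 of 10 members were called by edgeR's quasi-likelihood test and 0 had an unadjusted p under 0.05, where 0.0102% of 19518 features were called and 5.71% had an unadjusted p under 0.05. DESeq2 called 0 members too. Foxj3 mRNA itself was at 296 ± 60.2 (SD, n = 16) and 247 ± 55.7 (SD, n = 13) normalized counts. The construct mCherry-Trim21 was lower in LOF embryos, with 1104 ± 916 against 2318 ± 1792 normalized counts, and 15 of 16 LOF embryos lay below its CONTROL median. With its level as a covariate, 0 members were called.

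Before these values, 2 CONTROL embryos need a description: embryos 2 and 3 of batch 1 stood apart from the other 11 CONTROL embryos. They had the 2 lowest Ythdf2 levels of their group, 141 and 129 normalized counts where the next was 341, and the 2 highest Btg4 levels, 1989 and 4158 where the next was 1571. Their Cnot8 (346 and 304) was also the lowest, and their Cnot7 (654 and 1158) the highest of the CONTROL embryos. Tbp mRNA was low in both, at 115 and 95.2 normalized counts, and the summed oocyte transcripts, at 4042 and 6166 CPM, were the highest of all FOXJ3 LOF and CONTROL embryos. Their summed 2-cell markers were at 752 and 1112 CPM. These embryos passed quality control, with 2171591 and 2214285 reads. In low Tbp, Ythdf2 and Cnot8 and high Btg4 and Cnot7 they differed from the other CONTROL embryos in the direction in which TBP LOF embryos differed from theirs on the CPM scale. Whether stage, handling or a wrong label lies behind this was not tested, and they were kept in the group their labels give.

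**Figure D4:**
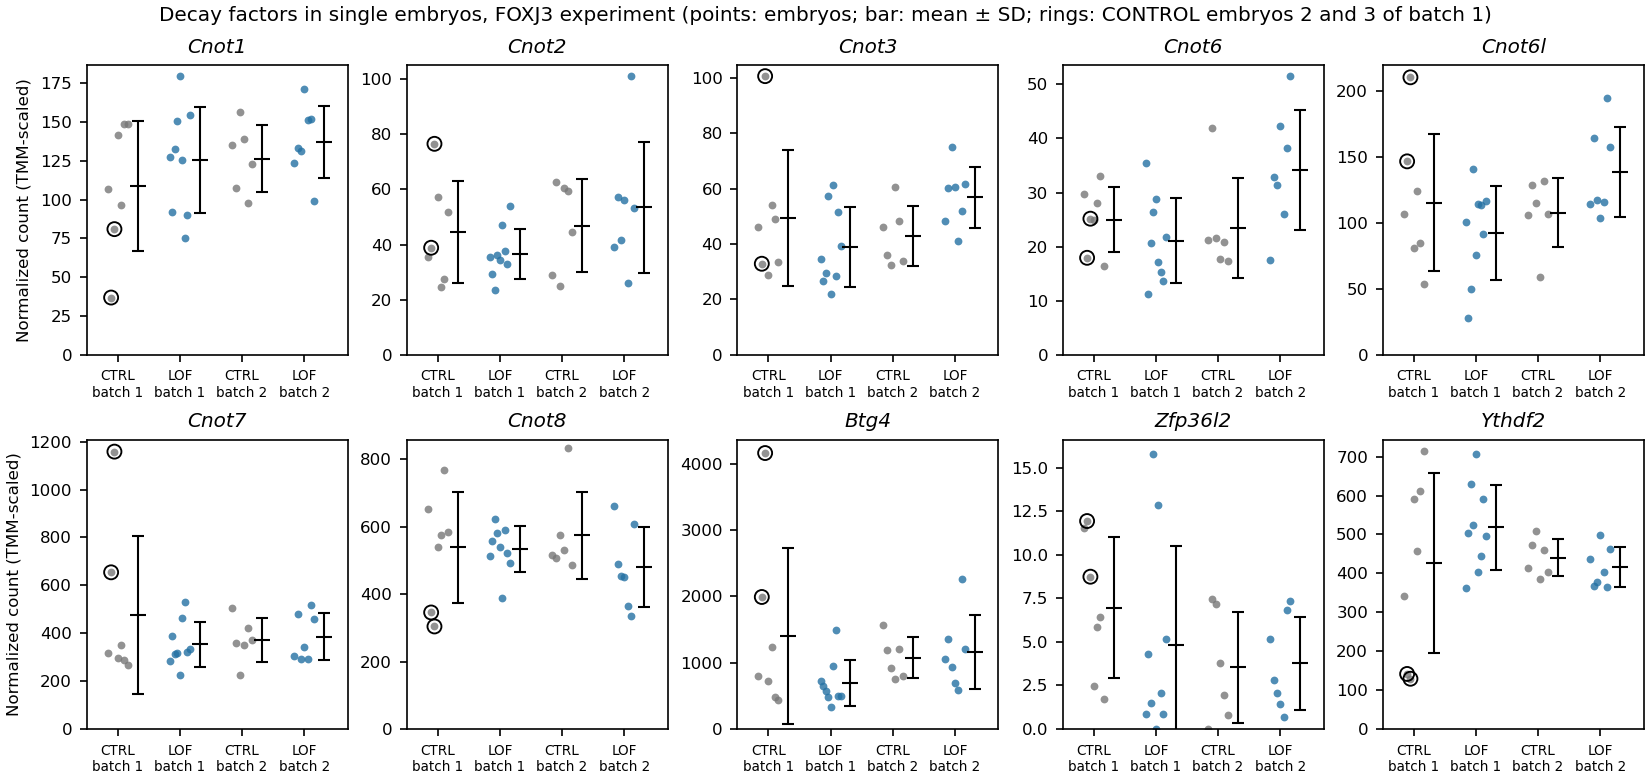
Normalized counts of the 10 decay factors (vertical axes, TMM-scaled, starting at 0) in CONTROL (grey; n = 7 in batch 1 and 6 in batch 2) and FOXJ3 LOF (blue; n = 9 and 7) embryos; each point is 1 embryo, bars give mean ± SD, cut off at 0 where the SD exceeds the mean, and rings mark CONTROL embryos 2 and 3 of batch 1. The ringed embryos have the lowest Ythdf2 and the highest Btg4 of all CONTROL embryos.

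Btg4 had the largest difference of the 10 upon FOXJ3 LOF, and these 2 embryos had the highest Btg4 of the CONTROL embryos. Its normalized counts were 337 to 2258 in LOF embryos (median 707) and 436 to 4158 in CONTROL embryos (median 919), or -0.53 on the log2 scale (SE 0.27) with an adjusted p = 0.877 in edgeR's test. Within batch 1 it was -1.06 (SE 0.38, adjusted p = 0.443) and within batch 2 it was 0.10 (SE 0.25, adjusted p = 0.995), and the difference between batches was 1.14 (SE 0.52, adjusted p = 0.600). Without the 2 embryos, a choice made after seeing them, the log2 fold change was -0.00025 (SE 0.20) and the difference between batches 0.20 (SE 0.40). Leaving out the 2 highest CONTROL values lowers the CONTROL mean by itself, so this is no test. The members that fell with spike-ins upon TBP LOF had log2 fold changes of 0.30 (Ythdf2), 0.38 (Cnot1) and 0.055 (Cnot8) with ERCC scaling. None passed the threshold, and by TMM all were near 0. Ythdf2 had 363 to 707 (median 454) and 129 to 715 (median 457), at 0.12 on the log2 scale (SE 0.18, adjusted p = 0.972) and -0.08 without the 2 embryos. Cnot1 had 75.1 to 179 (median 132) and 36.8 to 157 (median 123), with 0.16 (SE 0.17, adjusted p = 0.954), and Cnot8 had -0.12 (SE 0.14, adjusted p = 0.962).

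The 95% interval of the difference ran from -0.24 to 0.47 for Ythdf2, from -0.16 to 0.49 for Cnot1 and from -0.40 to 0.15 for Cnot8. Without the 2 embryos the log2 fold change of Cnot1 was 0.04 and that of Cnot8 was -0.24 (p = 0.0477 before and 0.790 after adjustment, edgeR). The remaining members had log2 fold changes from -0.28 (Zfp36l2, SE 0.50) to 0.11 (Cnot6, SE 0.23), with Cnot7 at -0.22, Cnot2 at -0.07, Cnot6l at -0.01 and Cnot3 at -0.01. A term for a different effect in the 2 batches was called for 0 members and for 0% of all features (edgeR; 1553 features had an unadjusted p under 0.05, of the members Btg4 alone). It was not fitted with DESeq2. Of the 83 other decay genes tested, 0 passed with either tool, and 4 had an unadjusted p under 0.05. Among them, named after their values were seen, were Btg2 (-1.29, adjusted p = 0.603), Btg3 (0.98, adjusted p = 0.783) and Angel2 (-0.33, adjusted p = 0.861).

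The levels of 4 members are given side by side as CPM of counted reads, in groups whose libraries were prepared in separate experiments. Cnot1 had 52.9 ± 8.81 CPM (SD, n = 9) with mouse IgG and 57.6 ± 18.8 (SD, n = 13) with rabbit IgG, 60.5 ± 11.8 (n = 16) upon FOXJ3 LOF and 33.8 ± 12.3 (n = 9) upon TBP LOF. Ythdf2 had 199 ± 52.7, 216 ± 93.3, 222 ± 49.2 and 82.9 ± 36.1 CPM in the same order, so that the TBP LOF group was the lowest and the other 3 lay within their spread. For Btg4 the order was 273 ± 130, 584 ± 390, 423 ± 244 and 638 ± 200 CPM, where the rabbit IgG group includes the 2 embryos that stood apart, at 920 and 1717 CPM. No neighbours in the order of levels differed beyond their spread, whereas TBP LOF and its own mouse IgG CONTROL, at its ends, lay apart by more than their SDs. Cnot6l, with 45.9 ± 17.0, 53.8 ± 17.0, 53.2 ± 21.1 and 93.6 ± 38.8 CPM, was highest upon TBP LOF.

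Among CONTROL embryos alone, several decay factors varied together or in opposition, in part through the 2 rabbit IgG embryos that stood apart. Over the 22 CONTROL embryos, with log2 CPM centred within each IgG group and batch, Ythdf2, Cnot8 and Cnot1 rose and fell together (Pearson's r = 0.83 for Cnot8 with Ythdf2, 0.81 for Cnot1 with Ythdf2 and 0.56 for Cnot1 with Cnot8; Spearman's rho 0.74, 0.74 and 0.42). Btg4 went with Cnot7 (r = 0.77, rho 0.76) and Cnot6l (r = 0.55, rho 0.55), and against Cnot1 (r = -0.67, rho -0.69), Ythdf2 (r = -0.67, rho -0.53) and Cnot8 (r = -0.56, rho -0.45). Ordered by r from most to least like Btg4, among 9401 genes, Cnot7 was at rank 80 and Cnot6l at 719. Cnot8 was at rank 7256, Ythdf2 at 8252 and Cnot1 at 8283, so many other genes lay further opposed to Btg4. The 9 mouse IgG embryos here are also the CONTROL of the TBP comparison. Without those 2 embryos, Btg4 had r = 0.51 with Cnot7, -0.53 with Cnot1, -0.22 with Ythdf2 and -0.08 with Cnot8, and Ythdf2 had 0.57 with Cnot1 and 0.55 with Cnot8, but Cnot1 with Cnot8 fell to 0.02. Cnot7 changed sign, from -0.57 to 0.25 with Ythdf2 and from -0.49 to 0.23 with Cnot8. Cnot6l and Cnot6, which code for similar proteins and may share reads, had r = 0.49, and 0.71 without the 2 embryos. The embryos share library preparation, and shares of a total are not free of each other, so these are descriptions with no test. Zfp36l2 was left out, as it had fewer than 10 reads on average.

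**Figure D5:**
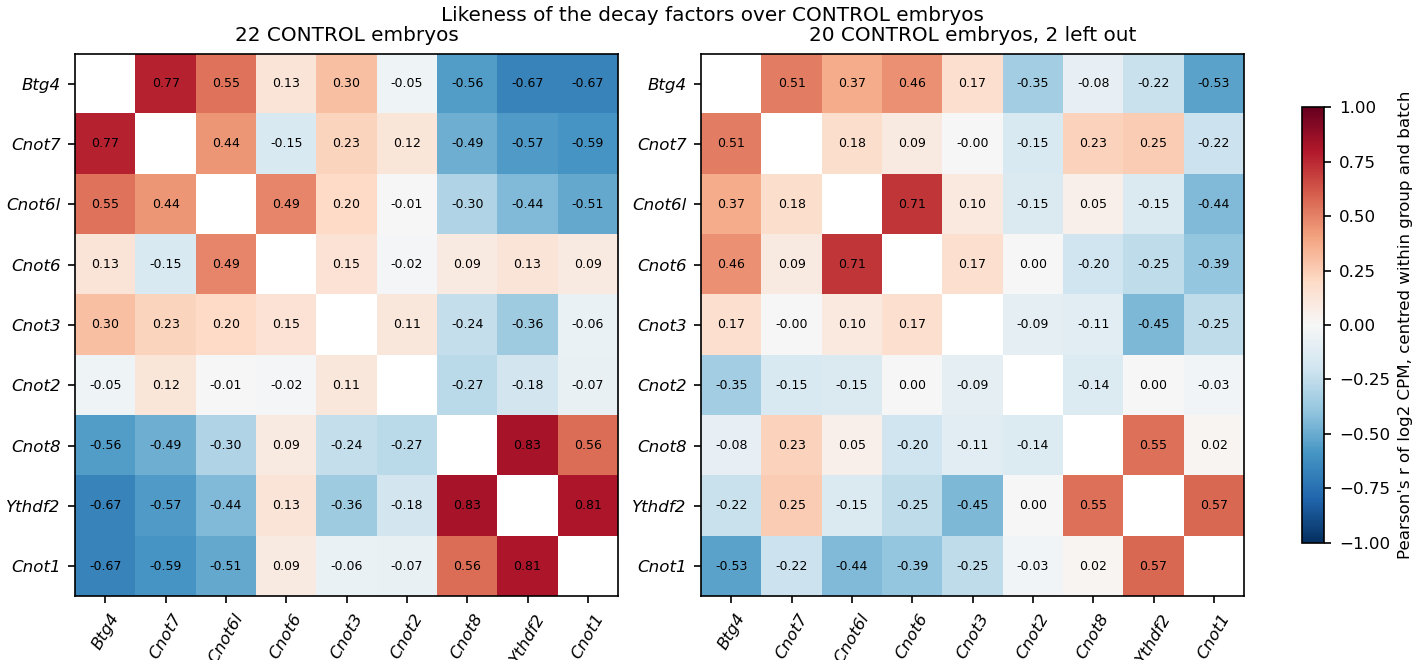
Pearson's r of log2 CPM between 9 decay factors over 22 CONTROL embryos (left) and over 20, without CONTROL embryos 2 and 3 of batch 1 (right), each centred within IgG group and batch; red is positive and blue negative on a scale from -1 to 1. Btg4 and Cnot7 (r = 0.77) sit opposite Ythdf2, Cnot8 and Cnot1 on the left. On the right Btg4 keeps negative values that are closer to 0, and Cnot7 turns positive with Ythdf2 (0.25) and Cnot8 (0.23).

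Of 9401 genes with at least 10 reads on average in these embryos, those most like Btg4 were Bcl2l10 (r = 0.94, rho 0.91), an oocyte transcript also on the list above, 7420426K07Rik (r = 0.92) and AA545190 (r = 0.91). Without the 2 embryos that stood apart these were 0.88, 0.85 and 0.85, and without the 2 embryos farthest from the Btg4 median 0.91, 0.86 and 0.88. The genes most like Cnot6l were Dcp2 (r = 0.83, rho 0.84), Rgs17 (r = 0.80) and Pcyox1 (r = 0.78), with 0.80, 0.75 and 0.75 without the 2 embryos that stood apart.

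Whether the authors' counting used strand is not given, so reads of a member and of a gene on the other strand within its bounds cannot be told apart. This touches Cnot3, which overlaps Leng1 (6491 reads over the embryos kept, against 2378 for Cnot3), Cnot2 with 5330438D12Rik (1954 against 1963), Cnot7 with Vps37a (2559 against 18381) and Cnot1 with 4930513N10Rik (910 against 5342). Cnot6 holds the processed pseudogene Gm12191 on its own strand (284 reads against 1289). Btg4 (46357 reads) overlaps genes with at most 1 read each, and Ythdf2, Cnot6l and Cnot8 overlap none in the annotation.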

How the data were processed

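Single late 2-cell embryos were sequenced with Smart-seq+5', in which only 5' fragments of transcripts were counted. The authors mapped reads with STAR 2.7.11a to GRCm38 with the mCherry-Trim21 construct added, and counted them with TEcount per gene (gencode M20), ERCC transcript and TE family. The deposited values are estimated counts (expected counts) without normalization. All were whole numbers, so rounding changed nothing. How multi-mapping reads were shared, and whether strand was used, is not given. Tables of single TE insertions were not used here.

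Embryos were kept with at least 500000 reads, 1000 detected genes, at most 10% mitochondrial and 15% ERCC reads. CONTROL embryo 7 with mouse IgG (464300 reads) and FOXJ3 LOF embryo 7 of batch 1 (308682 reads) were left out. Symbols and coordinates were taken from gencode M21 through unversioned identifiers (54809 of 54838 matched), and 42 rows of TE subfamilies were added to their 6 families. Features with a read in 25% or more of the embryos were tested together with edgeR 4.0.16 (quasi-likelihood test, Benjamini-Hochberg adjustment, threshold 0.05). TBP embryos were scaled by the median of ratios over 42 ERCC transcripts, FOXJ3 embryos by TMM with batch as a covariate. The authors used DESeq2. SEs were derived from edgeR's F statistic, and 95% intervals are 1.96 SE. The test was checked on simulated counts. Each embryo was 1 replicate, and reads carry no molecular identifiers.

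The genes described are the 10 members, all other CCR4-NOT and BTG/TOB genes, and in each other list of the pathway the top 2 genes by adjusted p for either direction upon TBP LOF. The 3 genes most like Btg4 and Cnot6l were taken by Pearson's r. Members and lists were chosen with earlier results of these data known. One gene that this rule names is not reported here. Alternatives were the other scaling, DESeq2 1.42.0 (its size factors or its test), no filter or filterByExpr, all embryos, the mCherry-Trim21 level as a covariate, replicate numbers as a block, single batches and single embryos left out. Leaving out 2 CONTROL embryos was added after seeing the data. R 4.3.3, limma 3.58.1, Python 3.11.15, numpy 2.4.6, pandas 2.3.3 and matplotlib 3.10.9 were used.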

Additional observations from a re-analysis of the deposited data

Results flagged for a closer look

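Of 20 groups of 9 embryos (10 decay factors in TBP LOF and in mouse IgG CONTROL), 1 held an embryo far from the others by Dixon's test at the 95% level, which chance alone gives in about 1 of 20. It was Cnot6l in CONTROL embryo 5, with 171 normalized counts, above the other CONTROL embryos. The larger FOXJ3 groups were not tested in this way.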

How the results depend on the processing

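Upon TBP LOF the 3 lower members became 1 by TMM and with DESeq2's size factors, and the 0 higher became 3 under both. Of the other decay genes, 33 lower and 1 higher became 19 and 22 by TMM. Under these scalings, of the members and the genes named by rule, the following turned positive, by TMM and with DESeq2's size factors: Cnot2 (0.52 and 0.54), Cnot3 (0.14 and 0.16), Cnot6 (0.51 and 0.53), Cnot4 (0.094 and 0.13), Cnot11 (0.50 and 0.54), Btg2 (0.16 and 0.20) and Pabpc4 (0.33 and 0.33), and with DESeq2's size factors alone Cnot8 (0.014) and Tob2 (0.014). With all embryos Zfp36l2 was -0.073. Replicate numbers did not pair the embryos: same-numbered embryos had correlations of deviations of -0.05 to 0.13 over 7 TBP pairs and -0.21 to 0.27 over 12 FOXJ3 pairs. A replicate block, fitted over those pairs alone with the other embryos left out, so that both changes act together, gave 1 higher member (Btg4, 0.98, adjusted p = 0.00398, edgeR), no call of Parn (adjusted p = 0.102), Cnot11 at 0.15, and 4623 lower and 281 higher features where the 18 embryos without the block gave 5758 and 259.

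With single embryos left out, the lower members stayed 3 and the higher ones 0 to 1, Cnot1 ranged from -1.32 to -1.10, Cnot8 from -0.98 to -0.80, Ythdf2 from -2.02 to -1.74, Cnot7 from -0.034 to 0.16, Zfp36l2 from -0.23 to 0.53 and Ythdf3 from -0.0046 to 0.20. Without TBP LOF embryo 8, Cnot4 (-0.88, adjusted p = 0.0358) and Tob2 (-0.97, adjusted p = 0.0209) were called.

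Upon FOXJ3 LOF no member was called under any of 11 alternatives or with any of 29 embryos left out, and some signs turned. With ERCC scaling Cnot2 was 0.036, Cnot3 0.20, Cnot6l 0.19 and Cnot8 0.055. Within batch 2 Cnot2 was 0.17, Cnot3 0.39, Cnot6l 0.36, Cnot7 0.043, Btg4 0.10, Zfp36l2 0.080 and Ythdf2 -0.084, and within batch 1 Cnot6 was -0.27. The replicate block gave Cnot3 0.00068, all embryos Cnot6l 0.0096, and mCherry-Trim21 as a covariate Cnot6l 0.087 and Zfp36l2 0.067. Without the 2 CONTROL embryos that stood apart Cnot2 was 0.042, Cnot3 0.13, Cnot6l 0.20, Cnot7 0.13 and Ythdf2 -0.075. With single embryos left out, Cnot2 ranged from -0.18 to 0.040, Cnot3 from -0.072 to 0.15, Cnot6l from -0.093 to 0.12 and Cnot7 from -0.28 to 0.0081. Zfp36l2 was too low to be tested under filterByExpr. The causes were not tested. Depth limits Zfp36l2, Cnot11, Fto and Dis3l2, which had under 10 normalized counts on average in both groups of the TBP experiment. Pabpc1l and Pabpn1l were under 10 in its CONTROL embryos.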
